A study of Rattus norvegicus with 8 samples.

Results

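Npy2r-positive nuclei of the rat nodose ganglion are described here. A nucleus was counted as a member when it held at least 1 transcript count (unique molecular identifier, UMI) of Npy2r and at least 2 UMIs summed over the neuronal genes Slc17a6, Snap25 and Scn10a. Of 36741 nuclei, 31172 passed the neuronal condition (84.8%), and 557 of these were Npy2r-positive, 1.79% of neurons and 1.52% of all nuclei. The comparison group was the 30615 neurons without a Npy2r UMI. The members were chosen by their counts of these 4 genes, so those counts are given as a description and these genes were left out of the tests between members and other neurons.

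Npy2r encodes the Y2 receptor for neuropeptide Y and for the truncated form of peptide YY that enteroendocrine cells of the distal gut release after a meal. Y2 receptors couple to Gi/o proteins, and on nerve endings they reduce calcium entry and transmitter release. The nodose ganglion holds the cell bodies of vagal sensory neurons, which report on the gut, heart and lungs to the brainstem, and Npy2r is one of the receptors by which subsets of these neurons are commonly told apart.

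The ganglia came from experimentally naive Long Evans rats aged 8 weeks, 18 males and 18 females, with no treatment or genetic change in any group. Each library pool combined the left or the right ganglia of 6 rats, with 3 pools for each of the groups male left (ML1 to ML3), male right (MR1 to MR3), female left (FL1 to FL3) and female right (FR1 to FR3). Nuclei of all 12 pools were barcoded together and divided into 8 sublibraries. A pool mixes 6 animals, and with 18 rats of each sex the left and right pools presumably share animals, so the spread between pools understates the spread between single animals and left and right pools are not independent animals.

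Sex labels and depth touch the results. The pool labelled ML1 had Y-linked transcripts (Ddx3y, Kdm5d, Eif2s3y and Usp9y together) at 3.75 CPM (a gene's UMIs scaled to the same total in each pool) in its Npy2r-positive neurons, whereas MR1 to MR3, ML2 and ML3 ran from 75.5 to 85.9 CPM. The pool labelled FL1 had 88.2 CPM, whereas FR1 to FR3, FL2 and FL3 ran from 0 to 5.54 CPM. Both pools go against their sex labels, and tests by side and by labelled sex are therefore also given without them. Secondly, Npy2r was sparse: the matrix held 615 Npy2r UMIs, 514 of the 557 members had 1, 40 had 2 and 3 had 3. Members were deeper (median 6193 UMIs, range 941 to 43002) than other neurons (median 3063). In total, 1865 combinations of barcoding wells occurred in more than 1 sublibrary (3808 nuclei), and no pair of members shared one.

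Depth and free RNA set what a single Npy2r UMI can say. Among 1566 glial nuclei without a UMI of the 3 neuronal genes, 5 held Npy2r, 0.319% (exact 95% binomial interval 0.104% to 0.744%, counting error only), at a median of 1323.5 UMIs and a level of 1.95 CPM. In neurons under 2000 UMIs the share was 0.351%, which lies within that interval, and it was 1.03% between 2000 and 4000 UMIs, 2.77% between 4000 and 8000 and 5.52% above 8000. The CPM moved less, from 2.63 CPM under 2000 UMIs to 5.44 CPM between 4000 and 8000, and it was 4.60 CPM over all neurons. Neurons without the UMI therefore include neurons that express Npy2r, and members include nuclei that may hold a stray UMI. Just outside the neuronal threshold, 5 of 3077 nuclei with a neuronal sum of 1 held Npy2r, and just inside it 8 of 3037 with a sum of 2. Across the Npy2r threshold, Cckar stood at 26.3 CPM in neurons with 0 Npy2r UMIs, 99.9 CPM with 1, 182 CPM with 2 and 50.2 CPM in the 3 nuclei with 3.

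The label of vagal neurons was checked against marker lists. Pan-neuronal markers summed to 8833 ± 842 CPM (SD, 12 pools) in members and 7419 ± 474 CPM in other neurons, and the sum was higher in members in 12 of 12 pools. In the gene tests given below, 6 of these 10 genes were higher and 1 lower, against 11.1% and 11% over all genes tested. The lower one was Rbfox3, at -0.799 to -0.615 on the log2 scale when single pools were left out (edgeR adjusted p at most 7.9e-06). Markers of jugular neurons (Prdm12, Drgx, Gfra3, Mrgprd and Osmr), the other sensory neurons of the fused ganglion, summed to 11.2 ± 9.57 CPM against 35.0 ± 18.8 CPM, and were higher in members in 0 of 12 pools. Mrgprd was at 0 in members. The jugular transcription factor Prdm12 was held by 8 members (1.44%) and by 2.91% of other neurons.

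The other genes of the neuropeptide Y system were nearly absent from members. No gene of the lists of Y receptors (Npy1r, Npy4r, Npy5r) or of their peptides and protease (Npy, Pyy, Ppy, Dpp4) passed the low-count filter. Npy1r, the receptor for intact neuropeptide Y, was found in 3 members (0.539%) and in 407 other neurons (1.33%), with 605 UMIs in all neurons. It was also found in 1.72% of the glial background nuclei. Whether those glia express Npy1r was not tested, so that share cannot be read as a level of stray UMIs. Npy5r was found in 1 member. Npy4r, Npy, Pyy and Ppy were found in 0 of 557 members and had 14, 114, 2 and 1 UMIs in all neurons. Dpp4, the protease that converts peptide YY to its Y2-selective form, was found in 12 members (2.15%) and in 1.08% of other neurons, with a share of 0.958% in background nuclei.

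Members were spread over many neuron clusters, and one cluster was richest. The 31172 neurons were clustered without the 4 rule genes into 37 clusters, 26 of them without the markers of another cell type. Cluster c6, led by Xylt1, Sctr, Cckar and Chrna3, held 108 of the 557 members (19.4%) but 4.88% of neurons. Its Npy2r level was 20.4 CPM in the summed nuclei and 20.1 ± 3.97 CPM over the 12 pools (range 13.9 to 28.6), and every pool lay above the 1.95 CPM of background nuclei. In each pool c6 made up a larger share of members (12.5% to 25.6%) than of neurons (2.50% to 7.42%). The median depth of c6 was 3426.5 UMIs, near that of all neurons, and 7.10% of its nuclei were Npy2r-positive. At a coarser and a finer clustering, the cluster with the highest level among those with at least 20 members was again made of these nuclei: it held 99.6% and 89.1% of the c6 nuclei, at 20.3 and 22.1 CPM.

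**Figure D1:**
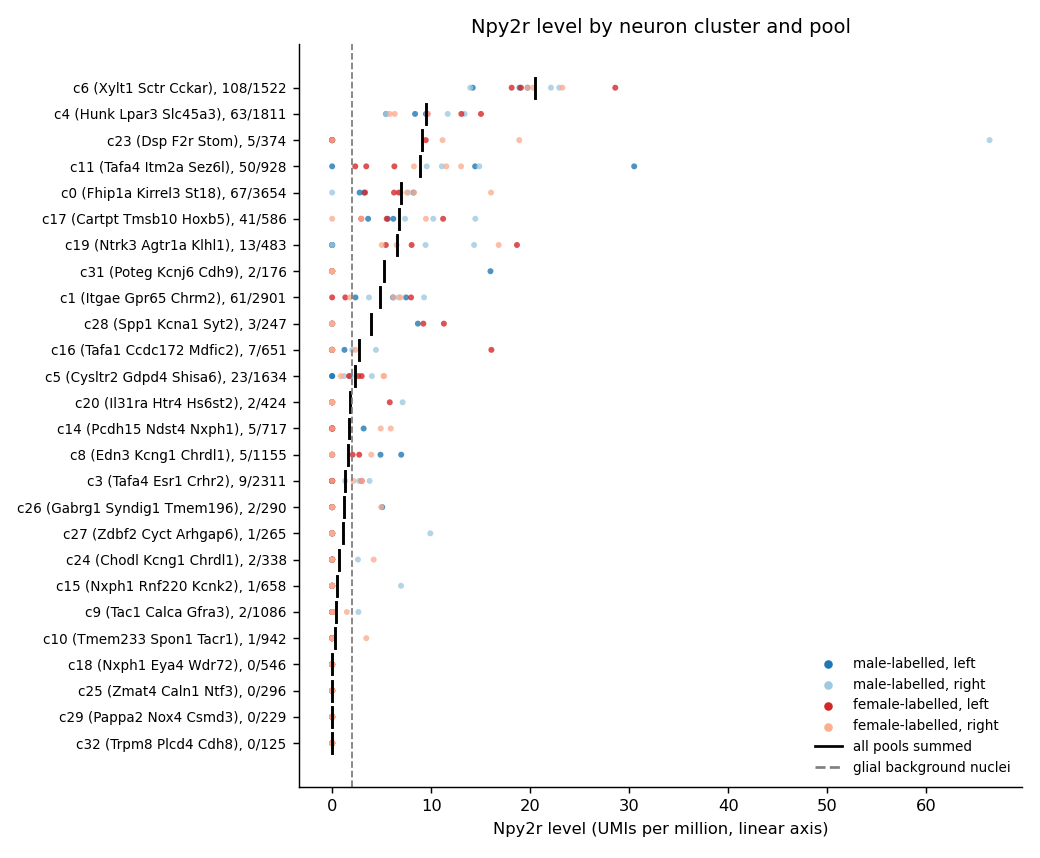
Npy2r level (CPM, linear axis) in the 26 neuron clusters without markers of another cell type, with leading genes and members over nuclei on the vertical axis. Points are pools, the black bar is the sum over pools and the dashed line is the level of glial background nuclei; the 12 pools of c6 sit between 13.9 and 28.6, all to the right of the dashed line.

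The other clusters that held many members had lower summed levels than c6, although single pools of c11, c0, c4 and c17 reached its range. Cluster c4, led by Hunk, Lpar3, Slc45a3 and Pde1a, held 63 members at 9.44 ± 3.31 CPM over pools, with every pool above background (5.44 to 15.0). Cluster c11, led by Tafa4, Itm2a, Sez6l and S1pr3, held 50 members at 10.4 ± 7.94 CPM, and its pools ran from 0 to 30.5. Cluster c0, led by Fhip1a, Kirrel3, St18 and Col27a1, held 67 members at 6.41 ± 4.01 CPM. Cluster c17, led by Cartpt, Tmsb10 and Hoxb5, held 41 members at 6.63 ± 4.11 CPM, and cluster c1, led by Itgae, Gpr65, Chrm2 and Ntsr1, held 61 at 4.99 ± 3.01 CPM. The pool ranges of c4, c11, c0, c17 and c1 overlap, so their order is not resolved. The share of c17 nuclei that were positive (7.00%) nearly equalled that of c6, but c17 was the deeper cluster, with a median of 9667 UMIs, and its pools ran from 0 to 14.5 CPM.

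Npy2r was seldom or never detected in some neuron clusters. In 11 of the 37 clusters the share was at or below the background share. The background nuclei were shallower than the clusters (median 1323.5 UMIs), and the share rises with depth, so that count is not matched for depth. By level, further clusters lay below the 1.95 CPM of background nuclei, among them c3 (1.27 CPM), c8 (1.57 CPM) and c14 (1.65 CPM). Cluster c9, led by Tac1, Calca and Gfra3, held 2 positive nuclei of 1086 and cluster c10, led by Tmem233, Spon1 and Tacr1, held 1 of 942. The 8 clusters with none summed to 2449 nuclei, which allows up to 0.122% of nuclei with a Npy2r UMI (3 nuclei). That limit covers detection, not expression. A further 84 members (15.1%) lay in the 11 clusters with at least 3 raised markers of another cell type, which held 21.9% of all neurons by the condition.

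Members of different clusters carried different receptor and channel genes. The 108 members of c6 carried the cholecystokinin A receptor gene Cckar at 345 CPM, the GLP-1 receptor gene Glp1r at 170 CPM and the secretin receptor gene Sctr at 152 CPM, and the 61 members of c1 carried them at 2.21, 4.41 and 2.21 CPM. Members of c0 had Cckar at 175 CPM and Glp1r at 60.3 CPM. Members of c4 and c11 were high in Trpa1, the irritant-gated channel, at 881 and 830 CPM, against 37.5 CPM in c6. Members of c1 were high in the serotonin receptor subunit gene Htr3b, at 609 CPM against 26.6 CPM in c6, and in Gpr65, a proton-sensing receptor, at 141 CPM against 3.12 CPM. Kcnq3, which encodes a subunit of the M-current potassium channel, ran from 287 CPM in c1 to 3094 CPM in c0. The purinergic channel genes P2rx2 (113 to 216 CPM) and P2rx3 (242 to 408 CPM) were present in the members of all 6 clusters, while the mechanosensitive channel gene Piezo2 (11.1 to 42.2 CPM) and the substance P precursor Tac1 (0 to 3.49 CPM) were low in each. These clusters were built on such genes, so the contrasts between them are descriptive.

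**Figure D2:**
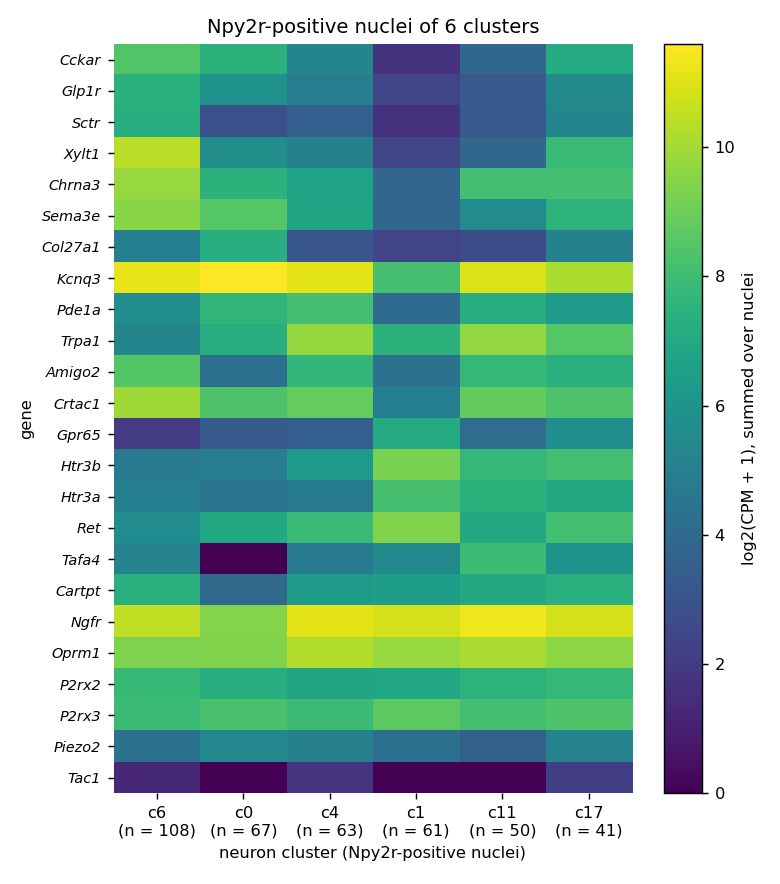
Level of 24 genes (rows, log2 of CPM + 1, with the UMIs summed over nuclei) in the Npy2r-positive nuclei of the 6 clusters with most members (columns, with the number of members). Read along rows: Cckar runs from 345 CPM in c6 to 2.21 in c1 and Htr3b from 609 CPM in c1 to 26.6 in c6.

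Within a cluster, members also departed from their neighbours in places. In c11, members had Tafa4, the gene of a secreted chemokine-like peptide, at 303 ± 193 CPM (SD over the 10 pools with at least 3 members) against 845 CPM in the other nuclei of the cluster, and lay below them in 10 of 10 pools. Trpa1 in c11 was also lower in members in 10 of 10 pools, at 795 ± 210 CPM against 1083 CPM. Chrna3, the alpha-3 subunit of the nicotinic acetylcholine receptor, was higher in c11 members in 9 of 10 pools, at 263 ± 148 CPM against 112 CPM, and higher in c6 members in 12 of 12 pools. These genes were picked after their values were seen.

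Over all neurons, members differed broadly from other neurons. Of 12079 genes tested (edgeR quasi-likelihood F test on UMIs summed per pool, pool as a block, Benjamini-Hochberg adjusted p under 0.05), 1336 were higher in members (11.1%) and 1326 lower (11%). The gut hormone receptor genes Cckar, Glp1r and Sctr were among the higher genes, and Piezo2, Tac1, Gfra3 and Trpm8 among the lower ones.

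Cckar, whose product senses cholecystokinin from the duodenum, had the largest fold change among the 12 higher genes named by rule. It stood between 67.5 and 165 CPM in members (median 94.8) and between 13.9 and 36.1 CPM in other neurons (median 26.6), and the groups did not overlap in any pool. Its log2 fold change was 1.95 ± 0.10 (SE, adjusted p = 1.68e-20). Chrna3 stood between 132 and 341 CPM in members and between 52.0 and 93.0 CPM in other neurons, again without overlap, with a log2 fold change of 1.77 ± 0.07 (adjusted p = 6.8e-26). Amigo2, an adhesion molecule gene, followed at 1.55 ± 0.10 and Xylt1, the enzyme that begins proteoglycan sugar chains, at 1.40 ± 0.10. Nsg1, Sema3e, Syt15 and Rgs9 completed the 8 with the largest fold changes among called genes that had 1 direction in all 12 pools and at least 20 CPM. Nsg1 stood at 1.22, the axon guidance gene Sema3e at 1.13, Syt15 at 1.09 and Rgs9 at 1.08, the last of which encodes an accelerator of Gi/o signal termination. Dkk3 (1.07), the neurofilament-family gene Ina (1.06), Hoxb5 (1.05) and Crtac1 (0.97) were the remaining genes named by the same rule, which required 1 direction in all pools.

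The list of gut hormone and feeding receptors gave 5 higher and 1 lower of 13 tested, against 11.1% higher and 11% lower over all genes tested. Its median log2 fold change was 0.15 against -0.02 over all genes tested. Among nuclei with 3953 to 9447 UMIs, 3 of 9 tested were higher and 1 lower, against 6.93% and 9.31% over all genes tested there. Glp1r stood between 27.0 and 113 CPM in members and between 16.5 and 35.2 CPM in other neurons, was higher in 11 of 12 pools and rose by a log2 fold change of 1.19 ± 0.12 (adjusted p = 1.36e-10). Sctr was higher in 11 of 12 pools, at 34.1 ± 14.2 CPM against 15.1 ± 3.49 CPM (1.12 ± 0.16, adjusted p = 1.49e-07). The neurotensin receptor gene Ntsr1 rose by 0.91 ± 0.24, a call kept in 17 of 22 alternatives and lost without FL1 (0.58, adjusted p = 0.119) and among nuclei in the middle range of the members' depth, 3953 to 9447 UMIs (0.49, adjusted p = 0.446). Tacr1, the substance P receptor gene, fell by 1.05 on the log2 scale.

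Among the lower genes, those of the rule were Adamts16 (-2.02), Tmem233 (-1.90), Brinp3 (-1.79), Tac1 (-1.71), Il16 (-1.57), Mybpc1 (-1.52), Kcnip1 (-1.52), Lrp1b (-1.49), Ndst3 (-1.49) and Edil3 (-1.45). The rule required each to be lower in every pool. Brinp3 did not overlap: members lay between 4.49 and 56.5 CPM and other neurons between 73.9 and 121 CPM. Lrp1b also had no overlap, with members between 27.0 and 245 CPM and other neurons between 270 and 438 CPM. Tac1 averaged 6.90 ± 7.96 CPM in members and 26.3 ± 17.2 CPM in other neurons, and these ranges overlapped.

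**Figure D3:**
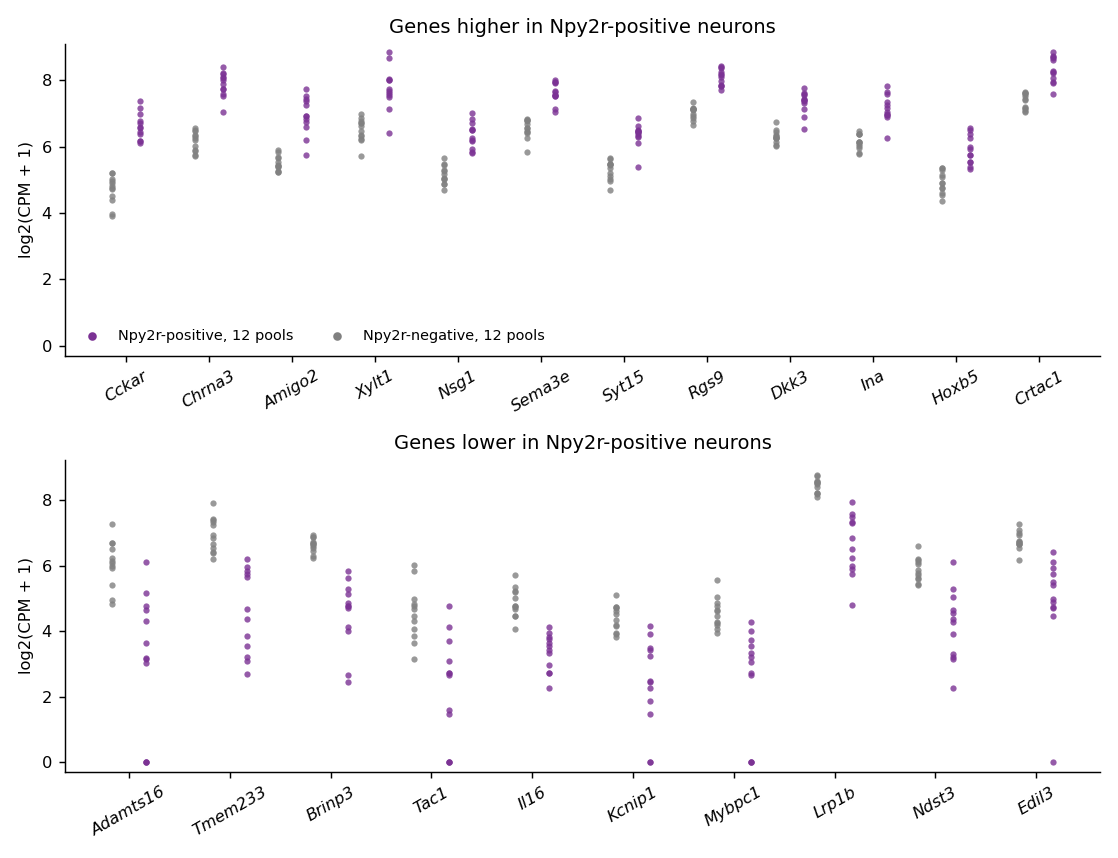
Levels of the 12 higher and 10 lower genes (vertical axis, log2 of CPM + 1) in Npy2r-positive (purple) and Npy2r-negative (grey) neurons, 1 point for each of 12 pools. Cckar and Chrna3 separate in every pool, as do Brinp3 and Lrp1b in the other direction, while Tac1 and Adamts16 overlap between pools.

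Channel genes moved in both directions, and their counts are to be read against 11.1% higher and 11% lower over all genes tested (6.93% and 9.31% in the members' UMI range). Of 12 mechanosensitive channel genes, 1 was higher (Tmc3, 0.43 ± 0.06) and 4 were lower. Piezo2 averaged 136 ± 101 CPM in members and 277 ± 68.9 CPM in other neurons, lower in 11 of 12 pools (-1.12 ± 0.13, adjusted p = 2.8e-09), and the acid-sensing channel gene Asic1 fell by 1.01 on the log2 scale. Kcnq3 was higher in 12 of 12 pools (0.48 ± 0.05), but stood at -0.34 with Npy2r at 2 or more UMIs (adjusted p = 0.35). In that setting the median over all genes tested was -0.43. Of 11 TRP channel genes, 3 were higher and 2 lower, or 1 and 3 in the members' UMI range, with the cold-gated channel gene Trpm8 at -1.43 ± 0.26. Of 11 purinergic receptors, P2rx2 was among 2 that were higher (0.74 ± 0.07) and P2ry1 among 3 that were lower (-0.97 ± 0.34, a call kept in 12 of 21 alternatives). Of 11 sodium channel genes, 4 were higher and 1 lower. None of 5 serotonin receptor genes was called in either direction over all neurons, and in the members' UMI range 2 of 3 tested were lower.

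Peptide and growth factor genes were divided as well. Over all genes tested, 11.1% were higher and 11% lower (6.93% and 9.31% in the members' UMI range). Of 6 neuropeptide genes tested, Cartpt, the precursor of the satiety peptide CART, was higher at 89.5 ± 37.1 CPM against 47.7 ± 14.1 CPM (0.93 ± 0.09), and 3 were lower: Tac1, Edn3 (-1.54 ± 0.46) and Calca, the precursor of CGRP (-0.94 ± 0.26, a call kept in 19 of 23 alternatives, but 0.51 against cluster-weighted neurons). Of 7 neurotrophin and GDNF receptor genes, 2 were higher, with Ngfr at 1552 ± 181 CPM against 979 ± 130 CPM without overlap between pools, and 3 were lower, with Gfra3 at -1.63 ± 0.36, Gfra2 at -0.63 ± 0.12 and Ntrk3 at -0.34 ± 0.12 (kept in 15 of 23 alternatives). Of 23 genes of Gi/o signalling, 5 were higher and 4 lower (median 0.05, all genes -0.02), and in the members' UMI range 2 of 22 were higher and 4 lower. Both jugular markers tested, Gfra3 and Drgx, were lower.

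Depth, other cell types and mitochondrial transcripts differed between the groups as well. In nuclei with 3953 to 9447 UMIs, the middle range of the members, 6.93% of 9561 genes were higher and 9.31% lower. Of 2533 genes called over all neurons and tested there, 1340 were called in the same direction and 0 in the other. Cckar kept a log2 fold change of 2.03, Glp1r 0.97 and Piezo2 -2.13 in that range. Mitochondrial transcripts summed to 34133 ± 8208 CPM in members and 23264 ± 7680 CPM in other neurons, higher in 12 of 12 pools. Myelinating Schwann markers were lower in members in 12 of 12 pools (515 ± 84.4 against 735 ± 176 CPM) and fibroblast markers in 11 of 12 (164 ± 53.2 against 232 ± 67.9 CPM). The T cell list summed higher in members in 10 of 12 pools (30.5 ± 10.5 against 20.8 ± 2.69 CPM), with Cd3e and Themis at 0 in members. Only 1 gene of that list passed the low-count filter, and it was called higher. Within c6, Skap1 of that list stood at 76.2 ± 38.2 CPM in members. It stood at 78.3 ± 14.5 CPM in the other nuclei of c6 (edgeR adjusted p = 0.845), so c6 neurons without Npy2r carried it too. Satellite glia markers spanned 144 to 798 CPM in members and 297 to 677 CPM in other neurons. They were higher in members in 4 of 12 pools. At least 3 UMIs of the 2 glial lists were present in 316 members (56.7%) and 12375 other neurons (40.4%). That cut is a fixed count and members were deeper (median 6193 against 3063 UMIs), so these shares are not matched for depth. No doublet caller was run, and the part of doublets and of mitochondrial, glial and T cell list transcripts in these differences was not tested. Without nuclei carrying at least 3 glial UMIs, 1688 of 9760 genes tested were called, and without clusters carrying markers of another cell type, 2608 of 11373.

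All 22 genes named by rule differed less from neurons of the same clusters than from all other neurons. When the other neurons of each pool were weighted to the members' shares of the clusters, Cckar in them averaged 53.2 CPM, not 26.0 CPM, and members were higher by 0.91 (log2 of CPM + 1, no test) and in 12 of 12 pools. The difference shrank to 0.50 for Glp1r, 0.23 for Xylt1 and -0.39 for Piezo2, and it turned in sign for Sctr (-0.07), Trpm8 (0.10), Calca (0.51), Asic1 (0.20), Tacr1 (0.22) and Gfra3 (0.11). Within c6 alone, 8.24% of 2960 genes were higher in members and 4.16% lower. Chrna3 (0.70 ± 0.09), Amigo2 (0.69 ± 0.14), Cckar (0.57 ± 0.13, adjusted p = 0.00146) and Ngfr (0.62 ± 0.09) were among the higher genes there. Xylt1 (0.13 ± 0.09, adjusted p = 0.409), Glp1r (0.37 ± 0.17, adjusted p = 0.141), Sctr (-0.37 ± 0.17, adjusted p = 0.165) and Kcnq3 (0.02 ± 0.07, adjusted p = 0.913) were not called within c6. The mitochondrial ribosomal RNA entry AY172581.24 had the smallest p within c6, at 19219 ± 9420 CPM against 11521 ± 5415 CPM, higher in 12 of 12 pools.

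**Figure D4:**
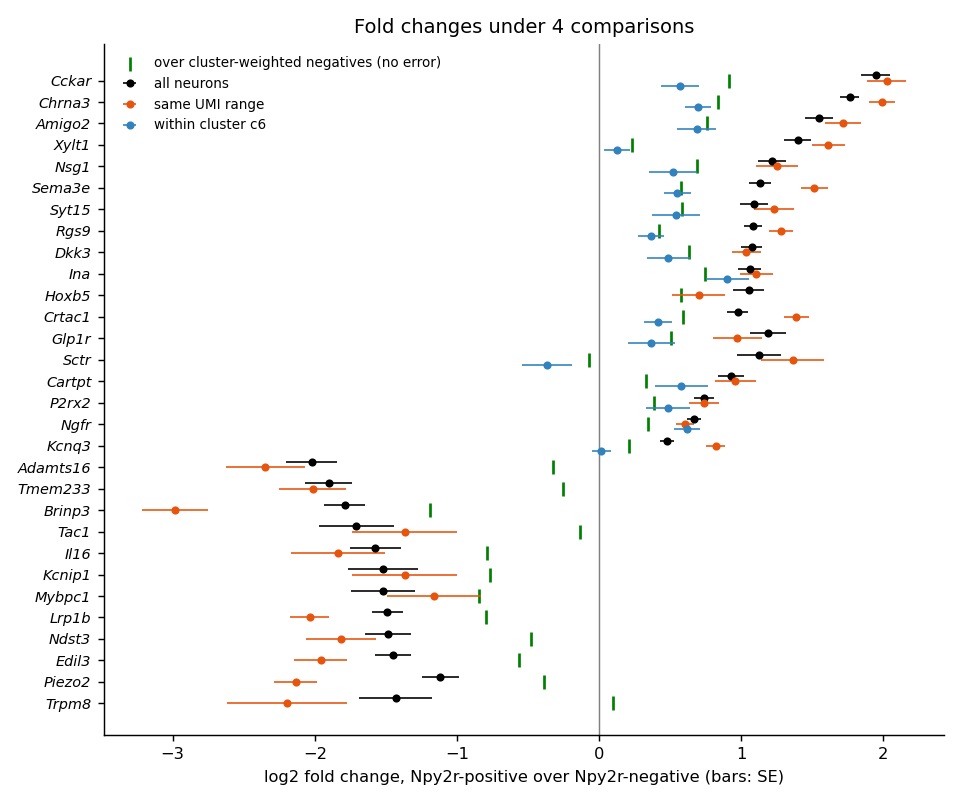
Log2 fold change of members over other neurons (horizontal axis, bars SE) for 30 genes over all neurons, in the same UMI range and within c6, with the difference from cluster-weighted neurons as green ticks. Cckar and Chrna3 stay to the right of 0 under all 4 comparisons, whereas Sctr moves from 1.12 over all neurons to -0.37 within c6.

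Overlap with other receptor-defined neurons was partial. Glp1r was detected in 154 members (27.6%) and in 8.27% of other neurons, or 26.5% against 11.7% in the same UMI range, with 1.40% in background nuclei. Cckar was detected in 172 members (30.9%, against 7.32%), or 33.7% against 10.8% in the same UMI range, with 1.09% in background nuclei. Cartpt was detected in 189 members (33.9%, against 12.8%), or 33.7% against 19.98%, with 4.21% in background nuclei. P2ry1 was detected in 17 members (3.05%, against 3.39%), or 1.43% against 4.26% in the same UMI range, with 3.26% in background nuclei. Whether the glial background nuclei express P2ry1 was not tested. Trpa1 was detected in 51.3% of members and 49.1% of other neurons of the same UMI range.

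Whether Npy2r differs between sides and sexes was tested over the 12 pools. On the left, the positive share of neurons was 1.03%, 1.22% and 1.72% in ML1 to ML3 and 2.04%, 1.5% and 2.32% in FL1 to FL3. On the right it was 1.88%, 1.65% and 1.71% in MR1 to MR3 and 3.14%, 1.75% and 1.83% in FR1 to FR3. The right pools averaged 2.00 ± 0.567% (SD, n = 6) and the left 1.64 ± 0.488%, a difference of 0.359 percentage points that did not exceed the spread between pools (exact permutation test within labelled sex, two-sided, p = 0.21, smallest possible p 0.005). The groups overlapped and FR1 stood apart from the rest, with the difference at 0.129 points without it, 0.237 without ML1 and 0.308 without ML1 and FL1 (p = 0.44, exact permutation test). With every nucleus reduced to 2000 UMIs, the expected share was 0.975 ± 0.153% on the right and 0.753 ± 0.207% on the left (exact permutation p = 0.055, and 0.17 without ML1 and FL1).

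The CPM of Npy2r, which uses each UMI of the pool, differed in the same direction. It stood at 2.28, 3.81 and 4.61 CPM in ML1 to ML3, 4.19, 3.64 and 4.75 CPM in FL1 to FL3, 4.71, 4.93 and 5.74 CPM in MR1 to MR3 and 7.2, 5.27 and 4.55 CPM in FR1 to FR3. Right pools averaged 5.40 ± 0.978 CPM and left pools 3.88 ± 0.897 CPM. The exact permutation test gave p = 0.015 and, adjusted over the 16 tests of shares, levels and depths, 0.08. In the fit of all genes the log2 fold change was 0.48 ± 0.17 with an adjusted p of 0.559, where 14 of 14726 genes were called by side (0.0951%) and 1 to 8 when any single pool was left out. Without ML1 and FL1 the levels were 5.40 and 4.20 CPM (exact permutation p = 0.07, adjusted 0.28) and the log2 fold change was 0.33 (adjusted p = 0.705).

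Cluster c6 itself took 5.79 ± 0.848% of neurons on the right and 3.81 ± 0.883% on the left (exact permutation p = 0.01, adjusted 0.08). Without ML1 and FL1 the left share was 4.05% (exact permutation p = 0.02, adjusted 0.267). Within c6 the positive share was 6.83 ± 1.59% on the right and 7.12 ± 2.48% on the left (p = 0.81, exact permutation test, and p = 1 without ML1 and FL1). Outside c6 it was 1.69 ± 0.472% on the right and 1.41 ± 0.392% on the left (p = 0.25, exact permutation test, and p = 0.46 without ML1 and FL1). The distribution of members over the 9 clusters with at least 20 of them was not shown to differ by side. The smallest p values were those of c4, with 16.3 ± 5.26% of members on the left and 8.20 ± 3.19% on the right (p = 0.025, exact permutation test, adjusted 0.112), and of c2, a cluster with glial and fibroblast markers. Without FR1, 1 of the 9 clusters passed, and without ML1 and FL1 none did (smallest adjusted p 0.27).

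**Figure D5:**
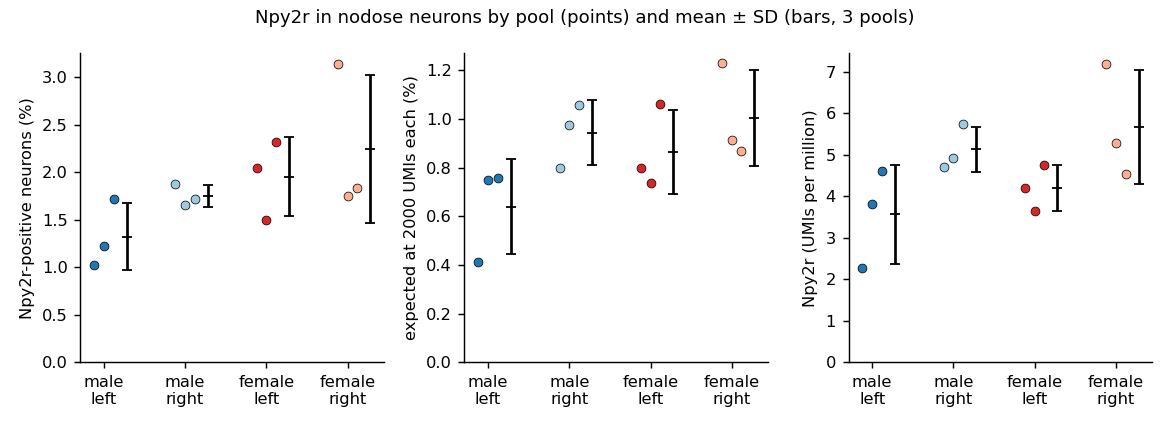
Share of neurons with Npy2r (left panel, percent), the share expected with every nucleus at 2000 UMIs (middle, percent) and the Npy2r level (right, CPM) in each pool, with mean ± SD of 3 pools. The ranges of left and right pools overlap in each panel. Among male-labelled pools, left and right do not overlap in the middle and right panels. There ML1 to ML3 reach 0.758% and 4.61 CPM, and MR1 to MR3 start at 0.798% and 4.71 CPM. FR1 is highest at 3.14% and 7.2 CPM, and ML1 is lowest at 1.03% and 2.28 CPM.

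By labelled sex, the positive share averaged 2.10 ± 0.581% in female-labelled and 1.54 ± 0.332% in male-labelled pools, a difference of 0.561 points (exact permutation test within side, two-sided, p = 0.07, adjusted 0.16). Depth moved with it: Npy2r-negative neurons had a median of 3509 ± 462 UMIs in female-labelled and 2812 ± 406 UMIs in male-labelled pools (exact permutation p = 0.015, adjusted 0.08). At 2000 UMIs per nucleus the difference was 0.144 points (p = 0.205, exact permutation test, and 0.383 without ML1 and FL1). The level was 4.93 ± 1.24 CPM in female-labelled and 4.35 ± 1.19 CPM in male-labelled pools, with a log2 fold change of 0.21 ± 0.17 (adjusted p = 0.626). In that fit 0 of 14726 genes were called by edgeR (0%), 1918 had an unadjusted p under 0.05 and DESeq2 called 98. The edgeR calls were 26 without ML1 and FL1, 15 without FL1 and 60 without MR1. With ML1 and FL1 kept under their labels, the 0 calls cannot show that no gene differs by sex. Without ML1 and FL1 the difference in share was 0.471 points (p = 0.233, exact permutation test). Without clusters that carried markers of another cell type it was 0.724 points (p = 0.01), and without FL2 0.681 points (p = 0.02, both exact permutation tests).

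Members themselves showed no gene that passed the test by side. With edgeR, 0 of 6734 genes were called (0%), 397 had an unadjusted p under 0.05, and DESeq2 also called 0. The smallest p was that of Gpr65, which stood at 65.7 ± 26.1 CPM in left and 25.8 ± 6.68 CPM in right members, a right-over-left change of -1.35 ± 0.26 on the log2 scale (adjusted p = 0.0961, with 0.000151 to 0.972 across 20 alternatives, 0.021 without ML3 and 0.0131 without FL3). Left pools ran from 30.4 to 98.2 CPM, and they overlapped the right pools. By labelled sex, 0 of 6734 genes were called by edgeR (0%) and 0 by DESeq2, with 447 at an unadjusted p under 0.05. The smallest p was that of Cartpt, at 115 ± 30.8 CPM in female-labelled and 63.1 ± 17.6 CPM in male-labelled members, a change of 0.86 ± 0.18 on the log2 scale (adjusted p = 0.386, with 0.00205 to 0.804 across 20 alternatives, 0.024 without FL1). The gene entry Ddx3 stood at 43.0 to 80.4 CPM in male-labelled members other than ML1 and at 0 in female-labelled members other than FL1. In ML1 it was 0 and in FL1 33.7 CPM, and it was not called (-2.82 ± 0.66, edgeR adjusted p = 0.571). With ML1 and FL1 kept under their labels, the 0 calls by labelled sex therefore cannot show that no gene differs by sex. Without ML1 and FL1, 6 genes were called by labelled sex and 0 by side.

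The interaction of side and labelled sex gave 0 calls of 6734 by edgeR (0%), 267 genes at an unadjusted p under 0.05 and 1 call by DESeq2. Without ML1 and FL1 edgeR called 0 and 324 had an unadjusted p under 0.05. Hpse2 had the smallest p (log2 interaction 3.85 ± 0.73, adjusted p = 0.141, and 0.0035 without ML3, 0.0333 without FL3 and 0.00614 without FR2). The side difference within members differed from that within other neurons for 1 of 12681 genes (0.00789%): Myh4, a myosin heavy chain of fast skeletal muscle. Its level in members was 229 CPM in MR1 and 206 CPM in FR2, and between 0 and 33.7 CPM in the other 10 pools. Among other neurons it ran from 9.19 to 117 CPM on the left and from 11.9 to 343 CPM on the right. The log2 difference was 2.22 ± 0.39 (adjusted p = 0.00849), and the call was lost without MR1, without FL1, without both ML1 and FL1, with Npy2r at 2 or more UMIs and with DESeq2. Skeletal muscle markers summed to 85.9 to 1252 CPM in members and 125 to 2219 CPM in other neurons. Cluster c22, led by Myh4, Ttn, Tnnt3 and Acta1, held 10 members, 3 of them from MR1 and 5 from FR2. FR2 gave 266 of its 415 nuclei. The part of muscle transcripts and of c22 in the Myh4 call was not tested.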

How the data were processed

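Single-nucleus RNA was measured in nodose ganglia of Long Evans rats with Evercode nuclei kits, per the labels' protocols. The submitters' processing notes name the build mRatBN7.2, R 4.3.2 and Seurat 4.1.3. Aligner, annotation release and nucleus filter were not given in the sources used here. Values of the deposited matrix are raw transcript counts (UMIs) per nucleus and gene, which the authors had not normalised, and its sums equalled the deposited totals in 36741 of 36741 nuclei (139965360 UMIs, median 2680 per nucleus).

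Labelled sex, side and replicate came from the pool names of the nucleus table, female numbers 4 to 6 becoming 1 to 3. Neurons were clustered on 2000 variable genes without the 4 rule genes (30 components, 20 neighbours, Leiden resolution 1). UMIs summed per pool were tested with edgeR 4.0.16 (TMM factors, filterByExpr, Benjamini-Hochberg), with DESeq2 1.42.0 as an alternative. CPM values are edgeR's for single genes and plain shares of UMIs for sums of lists and clusters. Shares were compared by exact permutation over pools (400 relabellings). The expected share at 2000 UMIs was computed per nucleus, leaving out shallower ones. P-values measure only the spread between pools. On simulated counts, 85% of 2-fold changes were recovered for members against other neurons (12079 genes) and 85.9% for sides within members (6734 genes). These simulations also held 99 and 94 genes with 4-fold changes, and gave 10 and 12 false calls. In the measured counts by side within members, Gpr65 (-1.35) and Gfra2 (-1.11) were not called (edgeR adjusted p = 0.0961 for both). The recovered shares therefore cannot show that 2-fold side differences are absent from members.

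Genes named are examples of the fixed lists, the 12 highest and 10 lowest called genes by fold change with 1 direction in all 12 pools and at least 20 CPM, and the smallest p of each pool contrast. Of 240 listed symbols, 10 had no entry and are not analysed here. Results of some listed genes are not reported here. The members and lists were chosen with earlier results of these data known. No doublets were removed.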

Additional observations from a re-analysis of the deposited data

Results flagged for a closer look

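FR1 stood apart among the 6 right pools in its Npy2r-positive share of neurons, at 3.14%, in its share of c6 neurons, at 7.42%, and in the positive share outside c6, at 2.63%. The last value also stood apart among the 6 female-labelled pools. Members of FL1 had a median of 7895 UMIs, apart from those of the other female-labelled pools, and FL1 is one of the pools whose Y-linked transcripts go against its label. Of 32 groups of 6 pools examined in this way, 5 held such a pool, where chance gives about 1 in 20.

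The difference between sides in Npy2r-positive neurons differed from that in Npy2r-negative neurons for Myh4, by 2.22 on the log2 scale. The members of MR1 and FR2 carried the high values. These pools also gave 3 and 5 of the 10 members in c22, the cluster with skeletal muscle markers, and the part of c22 was not tested.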

How the results depend on the processing

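The 2662 calls between members and other neurons, of 12079 genes tested, became 1061 of 11467 with Npy2r at 2 or more UMIs (46 higher, 1015 lower). In that setting the median log2 fold change over all genes tested was -0.43, and pools held from 1 to 8 members. Calls were 1688 of 9760 without nuclei carrying glial transcripts, 1553 of 9561 in the members' UMI range and 367 of 2960 within c6. The calls between members and other neurons numbered 2316 to 2697 when single pools were left out. Without the low-count filter the 2650 calls, of 23414 genes tested, divided into 854 higher and 1796 lower. By side within members, the 0 calls became 30 without that filter, 6 without the deepest 5% of neurons and 0 to 4 without single pools (1 without ML3, FL2 or FR2 and 4 without FL3). By labelled sex they became 27, 10 and 0 to 5 (2 without ML1, 5 without FL1), 3 without glial transcripts and 6 without ML1 and FL1. The interaction gave 1 call with DESeq2, 9 without the filter and 0 to 2 without single pools (1 without ML3 or FR2, 2 without FL3). The side difference between members and other neurons gave 0 with DESeq2 and without ML1 and FL1, 7 without the filter, 4 with Npy2r at 2 or more UMIs and 0 to 2 without single pools (0 without MR1 or FL1, 2 without FR2). The difference in share by labelled sex passed at 0.105 points with 2 or more UMIs (p = 0.015, exact permutation test) and at 0.724 points without clusters with markers of another cell type, and ran from 0.352 to 0.681 without single pools. The test by cluster and side gave 0 to 1 calls without single pools. The share by side ran from 0.129 to 0.494 points, and the log2 fold change of Npy2r from 0.34 to 0.56 by side and 0.08 to 0.29 by labelled sex, without a change of call. DESeq2 gave no adjusted p for Npy2r. The 14 genes called by side in all neurons were 45 with DESeq2, 1 to 8 without single pools (1 without ML2 or MR3), 4 with the replicate block and 2 without ML1 and FL1. Kcnq3 stood at -0.34 with 2 or more UMIs, where the median gene stood at -0.43. Sctr was -0.37 within c6. Against cluster-weighted neurons, Sctr was -0.071, Tacr1 0.22, Asic1 0.20, Trpm8 0.10, Calca 0.51 and Gfra3 0.11. The cause of these changes was not tested.

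Replicate numbers did not pair left and right pools (correlations of deviations -0.344 to 0.442). With the replicate block, side gave 0 of 6734 calls within members, the share p was 0.25 (exact permutation test) and Npy2r 0.49. Without pool as a block, members against other neurons gave 2577 calls. Choices on c6, clusters with other markers and cluster weighting were made after seeing the data. Npy2r was detected in 1.79% of neurons, and the power to find a difference in this share was not tested.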
